A study of Mus musculus with 3 samples.

Results

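The genes described here encode the major histocompatibility complex (MHC) molecules of the mouse and the proteins that load them with peptide. They were chosen by name: every symbol that starts with H2-, plus B2m, Cd74, Tap1, Tap2, Tapbp, Ciita, Nlrc5, Psmb8 and Psmb9. The rule found 47 of 33696 features in each of the tendon libraries and 49 of 35980 features in the dorsal root ganglion (DRG) library, or 50 symbols in all. By role they were 3 classical class I genes, 27 other class I genes, 5 genes of class I peptide supply, 7 class II genes, 5 class II loading genes, 2 transactivators and H2-Ke6, which carries the H2- name without a known part in presentation and was listed in the DRG library only.

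Class I molecules sit on nearly every nucleated cell and show peptides from inside the cell to CD8 T cells. H2-K1 and H2-D1 are their heavy chains, B2m is the shared light chain, Psmb8 and Psmb9 are immunoproteasome subunits that cut the peptides, Tap1 and Tap2 carry them into the endoplasmic reticulum and Tapbp (tapasin) holds the empty molecule there. H2-Aa and H2-Ab1 encode the chains of a class II molecule, and H2-Eb1 encodes the beta chain of another, which pairs with the H2-Ea chain. Class II molecules are found mainly on dendritic cells, B cells and macrophages and show peptides from outside the cell to CD4 T cells. Cd74, the invariant chain, blocks their groove until H2-DM (H2-DMa and H2-DMb1) exchanges the last piece of it for a peptide, and H2-O (H2-Oa and H2-Ob) restrains H2-DM. Nlrc5 and Ciita are the transactivators of class I and class II. Neurons are known for low class I.

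The study made 3 droplet single-cell RNA libraries (10x Genomics) from C57BL/6 mice, 1 per group. The neurectomy library held Achilles tendons of 5 mice whose sural nerve was cut 1 week before 4 weeks of dorsiflexion immobilization, a model of tendon overstrain. The sham library held Achilles tendons of 5 sham-operated mice that were also immobilized for 4 weeks, so no tendon was free of the overload. The DRG library held 18 ganglia (L4 to S1) of 6 mice, taken 4 weeks after 5 µL of AAV-PHP.S-tdTomato was put into the left Achilles sheath at 4 weeks of age; another label calls the virus a lentivirus, and the protocol pools ipsilateral and contralateral ganglia. For the tendon mice the labels state no age.

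The libraries held 25067, 32951 and 23566 barcodes (neurectomy, sham, DRG), of which 21992, 25306 and 22741 passed the filters of 500 genes and 15% mitochondrial counts, with 79750679, 133570956 and 239515477 unique molecular identifiers (UMIs, 1 per captured molecule) in all barcodes. Barcodes were put into cell classes by 8 markers per class, none of them a gene described here. The tenocyte gate took 38.8% of passing barcodes after neurectomy and 65.0% after sham surgery, and the neuron gate took 14.8% in DRG, so each library held cells of its labelled tissue. The tenocyte gate was broad: 3054 of its 8528 neurectomy and 6221 of its 16440 sham barcodes also held at least 2 markers of another lineage. So did 2439 of the 3356 neuron barcodes, whose median UMI count was 46880. Of the barcodes with only Xist or only Y-linked UMIs, 99.9% held Xist after neurectomy, 84.5% after sham and 0.0142% in the ganglia, so the neurectomy mice read as female, the DRG mice as male and the sham mice as mixed. The neurectomy and sham libraries shared 1001 barcode sequences, and in 721 of these the deeper copy held at least 30 times the UMIs of the other. The DRG library shared 153 barcodes with the neurectomy library and 189 with the sham library. In the tenocyte gate of the neurectomy library, the 382 barcodes shared with sham were deep (median of 30599 UMIs) and held 27.7% of the gate's UMIs. They held 513 CPM (UMIs per 1000000 UMIs of the barcodes counted) of summed class I and 10.0 CPM of summed class II, against 682 and 137 CPM in the 8146 barcodes that were not shared.

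Levels are UMIs summed over the barcodes of a class, in CPM of that class's total. Intervals are 95% and cover counting error only; with 1 library per group no spread between animals can be measured and no test was made. UMIs can be split among near-identical class I genes (H2-K1, H2-D1, H2-K2 and the H2-Q and H2-T genes), so the level of any 1 of these is uncertain. The tendon and DRG libraries differ in tissue, dissociation, sex and gene annotation, so a level set across them cannot be assigned to any 1 of these.

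Promoter stretches of the classical class I genes are shown because all 3 were lowest in neurons and highest in T and NK barcodes in DRG. Their order was not the same throughout. In both tendon libraries B2m was lowest in lymphatic endothelium, while H2-K1 and H2-D1 were lowest in Schwann (neurectomy) or mural (sham) barcodes. A script searched the 250 bases before each start site in the RefSeq promoter table (GRCm38.p6), on both strands, for TGACG followed after 20 bases by ATTGG, letters that lie in the X and Y boxes of the known class I enhanceosome; ATTGG on the other strand reads CCAAT. Only 30 of 32851 promoters (0.0913%) held it, among them promoters of 4 of the 37 members in the table. These were H2-K1, H2-D1, B2m and H2-M3, a class Ib gene whose product presents N-formylated peptides. The 5-base parts taken singly were more common. ATTGG or CCAAT was in 33 of the 37 members, beside 33.8% of all promoters. TGACG or CGTCA was in 15, beside 17.8%. The class II gene H2-Aa held both parts, so they are not confined to class I genes. The stretches around the motif are shown 5′ to 3′ on the gene's strand, with its letters in capitals, for H2-K1 (chr17:34000348-34000418, minus strand), H2-D1 (chr17:35262963-35263047, plus), B2m (chr2:122147579-122147663, plus) and H2-M3 (chr17:37270158-37270233, plus), all upstream of the first listed start.
H2-K1: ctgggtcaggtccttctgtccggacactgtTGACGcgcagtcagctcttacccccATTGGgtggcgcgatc
H2-D1: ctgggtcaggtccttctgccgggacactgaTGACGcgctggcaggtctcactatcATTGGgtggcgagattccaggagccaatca
B2m: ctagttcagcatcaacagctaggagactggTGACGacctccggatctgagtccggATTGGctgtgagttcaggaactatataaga
H2-M3: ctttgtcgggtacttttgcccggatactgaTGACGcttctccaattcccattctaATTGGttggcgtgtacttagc
A match describes letters in this window and shows no binding. The table held no entry for Cd74, Ciita, H2-Ab1, H2-Bl, H2-Ea, H2-Ea-ps, H2-K2, H2-Q1, H2-Q5, H2-T10, H2-T24, Nlrc5 and Tap2.

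Classical class I was lowest in neurons and highest in T and NK barcodes among the DRG classes with at least 50 barcodes. Summed over H2-K1, H2-D1 and B2m, it stood at 242 CPM in neurons (3356 barcodes), 705 in myelinating Schwann barcodes (7132), 966 in mural barcodes (526), 1445 in fibroblasts (1956), 1636 in neutrophils (136), 1653 in satellite glia (5222), 3557 in blood endothelium (672), 4138 in dendritic barcodes (50), 4750 in macrophages (444) and 7317 in T and NK barcodes (93). Neutrophils and satellite glia were next to each other in this order and their values lay close together. H2-K1 alone spanned from 56.5 CPM in neurons to 3478 CPM in T and NK barcodes, a 61.5-fold range, H2-D1 spanned 20.6-fold and B2m 20.9-fold.

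In the tendon, summed class I spanned 8.22-fold in neurectomy and 5.97-fold in sham over classes with at least 50 barcodes, against 30.3-fold in DRG. The ends of the DRG span were neurons and T and NK barcodes, which had no tendon class of that size, so the spans cover unlike classes. Summed class I was highest in macrophages (2866 CPM in neurectomy and 2673 in sham) and next in blood endothelium (1720 and 1309). It was 722 and 802 CPM in Pi16 fibroblasts, 656 and 588 in stromal fibroblasts, 684 and 663 in lymphatic endothelium, 635 and 778 in tenocytes and 788 and 448 in mural barcodes. The 72 Schwann barcodes of the neurectomy library held the least of any class with at least 50 barcodes, at 349 CPM. Blood endothelium thus carried more class I than every other non-immune class in all 3 libraries. T and NK barcodes, too few in the tendon for a comparison (26 and 29), held 3320 and 3493 CPM.

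**Figure D1:**
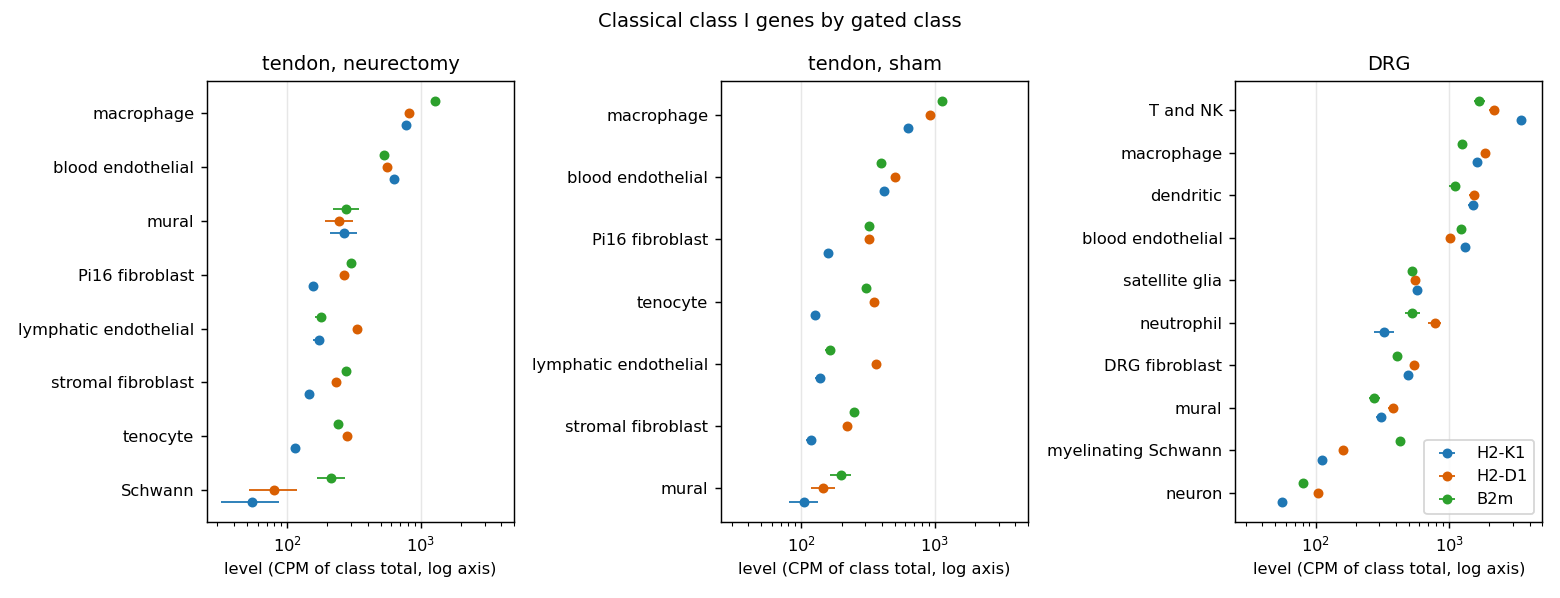
Level of H2-K1, H2-D1 and B2m (CPM of the class total, log axis) in each gated class with at least 50 barcodes, with classes ordered by their sum; bars are 95% Poisson intervals for counting error. Macrophages and blood endothelium lead the tendon panels, and neurons stand lowest in the DRG panel with H2-K1 at 56.5 CPM.

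The balance of the class I chains differed between glial classes. Myelinating Schwann barcodes, the cells that wrap axons in myelin, held 431 CPM of B2m, near the 525 CPM of satellite glia that surround the neuron bodies. Their heavy chains were far lower: H2-K1 stood at 112 CPM against 576, and H2-D1 at 162 against 552. The log2 difference was -0.28 for B2m, -2.36 for H2-K1 and -1.77 for H2-D1. Of the 19 members with enough counts (at least 50 UMIs and 10 CPM in the higher class), 12 were at least 1.5-fold lower in myelinating Schwann barcodes than in satellite glia, beside 21.0% of all genes, and 4 were at least 1.5-fold higher, beside 33.1%. The members' median log2 difference was -1.29 and that of all genes 0.26. The 4 higher were H2-DMa, H2-DMb1, H2-Eb1 and Cd74. These counts depend on the 10 CPM minimum. H2-Q4 and H2-T23, among others, reached it only in satellite glia, and H2-DMa and H2-DMb1 only in Schwann barcodes. H2-Aa (1.67-fold) and H2-T24 (2.68-fold) were higher in Schwann barcodes but lay under it and did not enter.

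As a share of all UMIs, DRG neurons were lower than satellite glia in most of the pathway. Neuron barcodes were far deeper, with a median of 46880 UMIs against 5150, so these shares are not amounts per barcode. In raw counts, summed class I gave 36246 UMIs over 3356 neuron barcodes and 46133 UMIs over 5222 satellite glia barcodes. Neurons held 80.5 CPM of B2m, 56.5 of H2-K1 and 105 of H2-D1, against 525, 576 and 552 in satellite glia. The summed log2 difference was -2.77 (95% counting interval -2.79 to -2.75). Of 16 members with enough counts, 15 were at least 1.5-fold lower in neurons, beside 29.9% of all genes, and 0 were higher, beside 43.9%. The median log2 difference of the 16 was -2.55, against 0.35 for all genes. These counts depend on the 10 CPM minimum. Several of the 16, such as Tap1, Tap2 and H2-Q4, reached it only in satellite glia. H2-T24 (3.13-fold), H2-M3 (1.81-fold) and H2-DMa (1.43-fold) were higher in neurons but lay under it and did not enter. The peptide transporter followed the class I chains, with Tap1 at 2.34 CPM in neurons and 37.0 in satellite glia and Tap2 at 8.63 and 97.3. Psmb8 stood at 19.9 and 86.1 CPM, and Nlrc5 at 3.49 and 26.1. Tapbp, at 35.4 and 73.6 CPM, differed least of the supply genes. H2-T22, which encodes a class Ib molecule seen by gamma delta T cells, was the single member of the 16 within 1.5-fold, at 14.3 and 15.8 CPM.

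Satellite glia RNA was present in neuron barcodes, and its level bears on these values. Fabp7, a satellite glia gene, stood at 139 CPM in neurons and 12635 in satellite glia, which is 1.10%, and Apoe stood at 0.748% of its satellite level. Fabp7 is a marker of the satellite glia gate, so the gating itself bears on its share, while Apoe is not a marker. H2-K1 in neurons was 9.81% of the satellite level, B2m 15.3% and H2-D1 19.0%. H2-Q4, at 1.81 CPM in neurons and 138 in satellite glia, was at 1.31% and so close to the share of the satellite genes. H2-Q4 in neurons therefore cannot be told apart from carried-over RNA. H2-M3 and H2-T24 were above the satellite level in neurons, at 9.80 against 5.41 CPM and 7.19 against 2.29 CPM, both under the 10 CPM minimum.

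**Figure D2:**
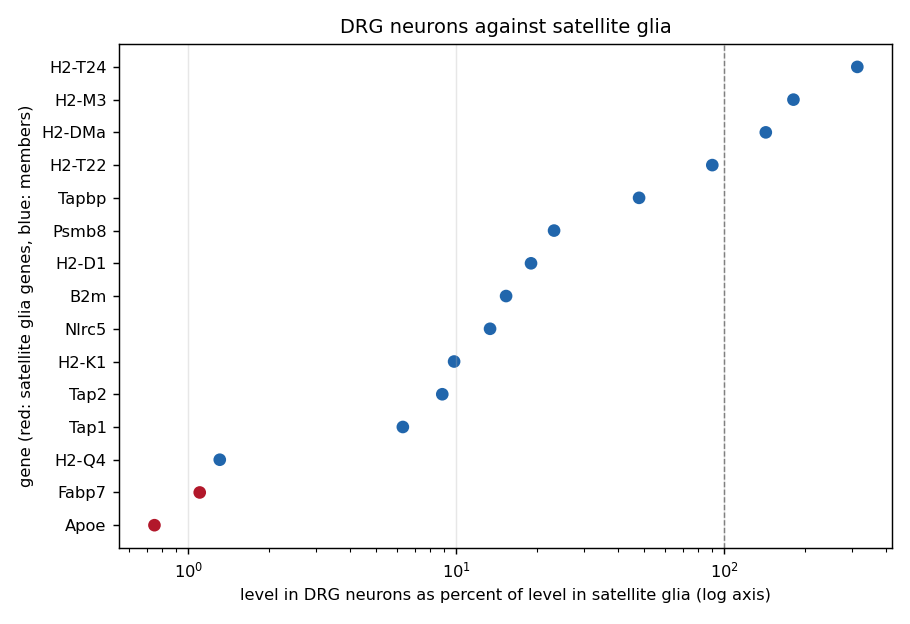
Level in DRG neurons as a percent of the level in satellite glia (log axis) for 13 members (blue) and the satellite glia genes Fabp7 and Apoe (red); the dashed line marks equal levels. H2-Q4 lies beside Fabp7 near 1%, the classical class I genes between 9.81% and 19.0%, and H2-T22, H2-DMa, H2-M3 and H2-T24 near or above the satellite level.

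Neurons also varied among themselves. Neuron groups were set by marker pairs chosen after the data were seen, and 1139 of the 3356 neurons met none. Summed class I stood at 272 CPM in 1431 peptidergic neurons (Tac1 and Adcyap1), 260 in 396 Mrgprd nociceptors, 175 in 175 C-LTMR neurons (Th and Slc17a8), 157 in 155 itch neurons (Nppb and Sst) and 157 in 60 proprioceptor-like neurons. B2m was 99.2 CPM in peptidergic neurons and 33.4 in itch neurons, and H2-K1 was 67.0 in peptidergic and 27.4 in C-LTMR neurons. Nlrc5 was 6.57 CPM in peptidergic neurons and at most 3.62 in the other 4 groups. H2-M3 followed another order, with its highest level of 14.2 CPM in Mrgprd nociceptors. Fabp7 was also highest in the peptidergic group, at 210 CPM, and lowest in proprioceptor-like neurons, at 37.8; its part in the order was not tested.

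Other class I genes, which are mostly less polymorphic and more restricted, differed in how they spread over the classes. H2-Q7, which encodes the class Ib molecule Qa-2, stood at 845 CPM in DRG T and NK barcodes, against 0.54 in neurons, 9.3 in satellite glia and 80.9 in blood endothelium. Tendon T and NK barcodes held 369 CPM in neurectomy and 612 in sham. H2-Q4 had a different spread, at 162 CPM in T and NK barcodes, 138 in satellite glia, 128 in blood endothelium, 90.3 in mural barcodes and 7.19 in myelinating Schwann barcodes. H2-T23 encodes Qa-1, which shows leader peptides of other class I chains to NK cells. Its level was broad in DRG, with a median of 99.9 CPM over 10 classes. It was highest in dendritic barcodes at 193 CPM and stood at 117 in blood endothelium and 104 in fibroblasts. Levels were 12.6 CPM in satellite glia, 3.25 in neurons and 3.10 in myelinating Schwann barcodes. Among tendon classes with at least 50 barcodes H2-T23 was highest in lymphatic endothelium, at 83.7 CPM in neurectomy and 120 in sham, although that class was the lowest for B2m (178 and 162). H2-M2 reached 162 CPM in the 17 dendritic barcodes of the neurectomy library, but all 34 of these UMIs came from 1 barcode. Many members were scarcely seen: 10 of 47 had no UMI in the neurectomy library, 8 of 47 in sham and 4 of 49 in DRG, with H2-M10 genes among them in each library.

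Class II was high in the antigen-presenting classes. Cd74 stood at 17506 CPM in DRG macrophages and 16893 in DRG dendritic barcodes, and at 3.69 to 29.4 CPM in the other 8 DRG classes with at least 50 barcodes. The 39 DRG B cell barcodes held 5645 CPM. H2-Aa was 6674 CPM in DRG macrophages and 9150 in dendritic barcodes, H2-Ab1 6159 and 8910, and H2-Eb1 8733 and 10888. H2-Oa and H2-Ob separated these classes: they stood at 110 and 130 CPM in dendritic barcodes, 96.6 and 248 in B cell barcodes and 2.46 and 5.53 in macrophages. Ciita was 16.6 CPM in macrophages, 22.1 in dendritic barcodes and under 1 CPM in every DRG class outside the immune ones. H2-Ea, the partner of H2-Eb1, had 0 UMIs in neurectomy and 1 in sham, and H2-Ea-ps had 0 in DRG. The H2-Eb1 part of summed class II is thus a level of RNA that is not shown to form a molecule.

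**Figure D3:**
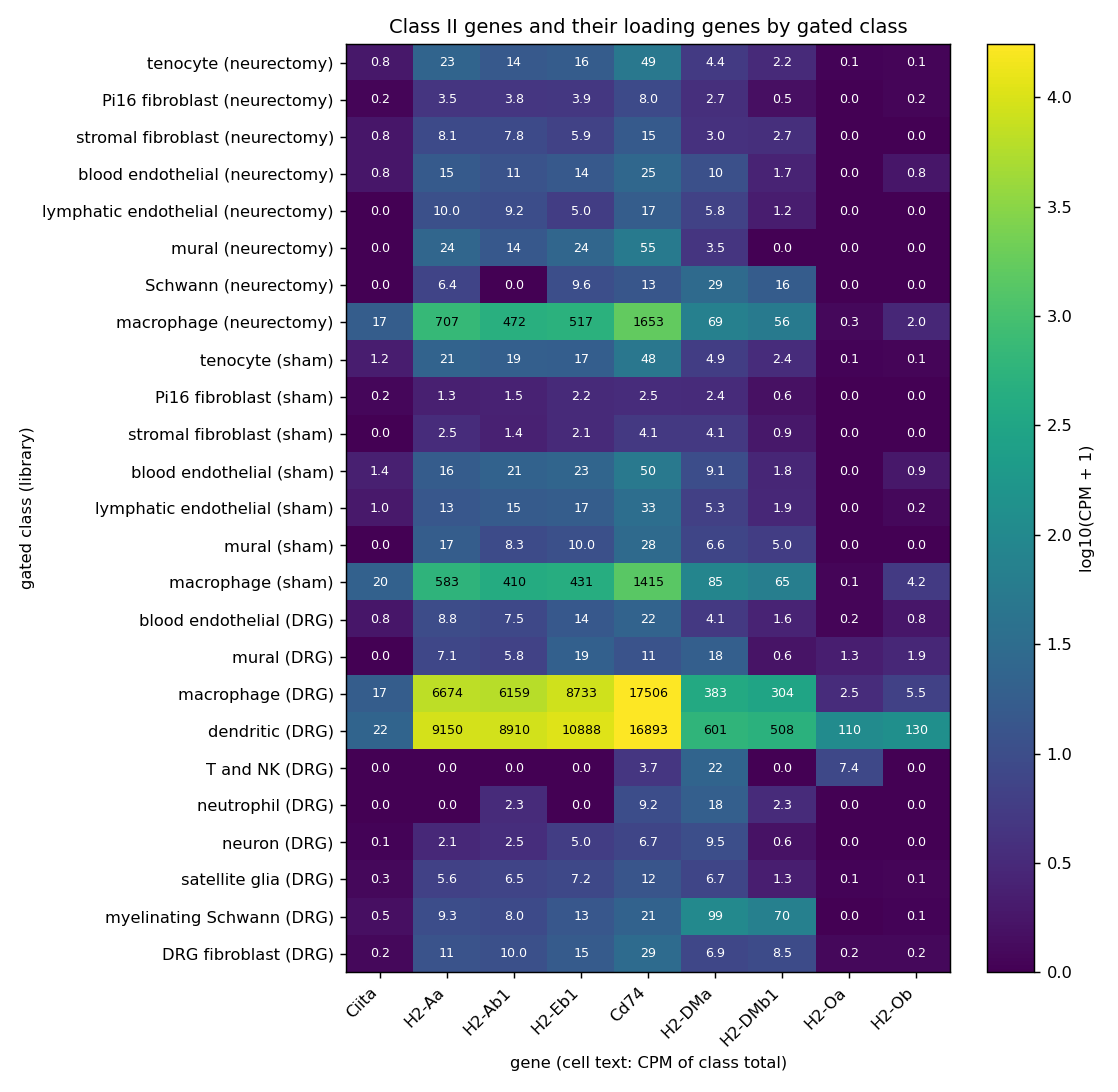
Level of class II genes, their loading genes and Ciita in each gated class with at least 50 barcodes of the 3 libraries; color is log10(CPM + 1) and the number in each cell is CPM. Macrophage and dendritic rows stand out for Cd74, and the myelinating Schwann row holds H2-DMa (99.0) and H2-DMb1 (70.1) beside Cd74 at 20.9.

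H2-DM was found in myelinating Schwann barcodes with little of the class II molecules it serves. In the DRG library H2-DMa stood at 99.0 CPM (94.5 to 104) and H2-DMb1 at 70.1 (66.4 to 74.1) in these barcodes, against 6.66 and 1.25 in satellite glia, 9.52 and 0.607 in neurons and 6.85 and 8.48 in fibroblasts. DRG macrophages held 383 and 304. Cd74 was 20.9 CPM in the Schwann barcodes, H2-Aa 9.26 and Ciita 0.490. H2-DM UMIs outnumbered class II UMIs 3.31 to 1 in Schwann barcodes, while in macrophages there were 0.0176 H2-DM UMIs per class II UMI.

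The same held barcode by barcode. Of 7132 myelinating Schwann barcodes, 1714 held an H2-DM UMI (24.03%, exact binomial interval 23.0 to 25.0%) at a median depth of 2146 UMIs, against 3.66% of satellite glia at the greater median depth of 5150 UMIs. Only 40 of these 1714 (2.33%) also held a UMI of H2-Aa, H2-Ab1, H2-Eb1 or Cd74, beside 1.85% of the Schwann barcodes without H2-DM. In DRG macrophages 348 of 351 barcodes with H2-DM held class II. Among the 6973 Schwann barcodes with neither a class II nor a C1q UMI, H2-DMa was still 99.0 CPM and H2-DMb1 70.5. After each barcode was thinned to 1000 UMIs, H2-DMa was seen in 6.89% of Schwann barcodes, 0.691% of satellite glia and 33.5% of macrophages. Over 12 alternative gates and settings the log2 difference from satellite glia stayed between 3.44 and 4.72 for H2-DMa and between 5.65 and 7.12 for H2-DMb1. The few tendon Schwann barcodes gave 9 UMIs of H2-DMa and 5 of H2-DMb1 beside 4 of Cd74 in neurectomy (72 barcodes), and 4, 10 and 1 in sham (26 barcodes).

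Tendon macrophages held far less class II than DRG macrophages. Cd74 stood at 1653 CPM in neurectomy, 1415 in sham and 17506 in DRG, and the summed class II level of DRG macrophages was 11.7-fold that of neurectomy and 13.8-fold that of sham. H2-DMa was 5.52-fold and 4.52-fold higher in DRG. Summed class I was only 1.66-fold and 1.78-fold higher, and C1q, macrophage genes used in the gate, 1.92-fold and 1.83-fold. Ciita was alike at 16.5 CPM in neurectomy, 19.6 in sham and 16.6 in DRG, with intervals of the ratio from 0.617 to 1.59 and from 0.538 to 1.28. More tendon barcodes held no class II, and the level per barcode was lower too: 391 of 879 neurectomy macrophages (44.5%) and 326 of 732 sham macrophages (44.5%) held no class II UMI, against 10 of 444 in DRG (2.25%). Thinned to 1000 UMIs, these shares were 54.3%, 64.4% and 4.30%. The median barcode held 169, 73.9 and 41822 CPM of summed class II in neurectomy, sham and DRG, and the 90th percentile was 11946, 10037 and 75646 CPM.

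Class II in tendon macrophages went with Ccr2, the receptor of monocytes that enter tissue, and not with the resident markers Lyve1, Folr2, Cd163 and Timd4. These markers were chosen after the data were seen. In neurectomy, 57 barcodes with Ccr2 and no resident marker held 15657 CPM of summed class II, against 1175 in 486 barcodes with resident markers and no Ccr2, a 13.3-fold difference (12.7 to 14.0). In sham the values were 10654 CPM in 53 barcodes and 417 in 403 barcodes, a 25.6-fold difference (24.2 to 27.0). In DRG macrophages the same division gave a 2.08-fold difference, and 263 of 444 barcodes had neither marker. Summed class I differed by 1.07-fold, 1.17-fold and 0.949-fold between these divisions, near the same level in each. Ciita was 23.9-fold higher with Ccr2 in neurectomy and 41.2-fold in sham, with wide intervals (11.6 to 53.0 and 18.2 to 109). Since Lyve1 is also a marker of the lymphatic gate, the macrophage gate takes fewer Lyve1 barcodes than it would without it.

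**Figure D4:**
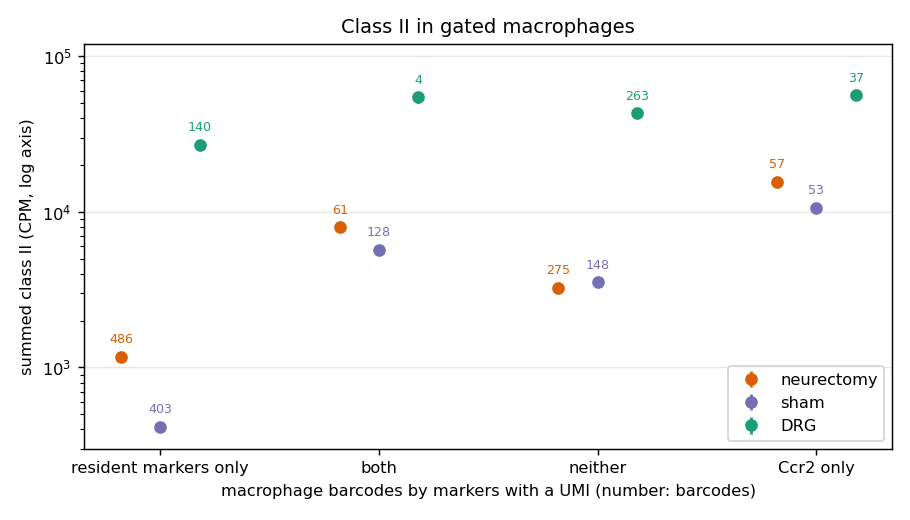
Summed class II level (CPM, log axis) in gated macrophages by whether a barcode held resident markers, Ccr2, both or neither; numbers are barcodes, and bars, mostly smaller than the points, are 95% Poisson intervals. Tendon barcodes with resident markers only lie lowest, at 1175 and 417 CPM, and all DRG groups lie above every tendon group.

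Summed class I lay within 1.5-fold between neurectomy and sham in every tendon class compared except mural barcodes. In tenocytes, which make the tendon's matrix, B2m stood at 239 CPM in neurectomy and 302 in sham, H2-D1 at 281 and 349, and H2-K1 at 115 and 127. The summed log2 ratio of neurectomy over sham was -0.29 (-0.31 to -0.27). No member passed 1.5-fold among the 11 with enough counts, beside 1.37% of all genes lower and 4.11% higher, but 9 of the 11 were below 0, with a median log2 ratio of -0.27 against 0.08 for all genes. H2-T23 was the farthest down, at 22.6 and 33.0 CPM (-0.55). Among tenocytes with at least 5000 UMIs (1208 and 2889 barcodes), all 8 members with enough counts were below 0 and 2 were at least 1.5-fold lower, beside 2.05% of all genes lower and 3.09% higher: H2-T23 at 20.8 and 31.7 CPM, and Cd74 at 4.68 and 15.2. These deep tenocytes include the shared barcodes, which held little class II. Among tenocytes not shared between the tendon libraries, summed class II stood at 137 CPM in neurectomy and 94.5 in sham, the opposite direction, and without the barcodes shared between any libraries the 2 members past 1.5-fold, H2-Aa and Cd74, were higher in neurectomy.

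Several other values also differed between the libraries in tenocytes. A list of 8 interferon-stimulated genes, chosen after the data were seen, summed to 72.7 CPM in neurectomy tenocytes and 242 in sham tenocytes. It was also lower in neurectomy in macrophages (205 and 368), lymphatic endothelium (204 and 374) and stromal fibroblasts (134 and 242), where summed class I was higher. It was lower in Pi16 fibroblasts (87.1 and 165) and higher in mural barcodes (204 and 105). Skeletal muscle markers summed to 160 CPM in neurectomy and 12.3 in sham. They were higher in neurectomy in every class compared, as in blood endothelium (159 and 20.0). Neither list was thus particular to tenocytes. Against sham tenocytes that held Xist and no Y-linked UMI the class I ratio was -0.32, and against those with a Y-linked UMI and no Xist it was -0.03. In both, all 8528 neurectomy tenocytes were kept, of which 5420 were Xist-only, so only the sham side was filtered. Without the barcodes shared between libraries it was -0.21, and without only the shallower copies -0.29. The part of any of these in the result was not tested.

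Blood endothelium showed the opposite sign. H2-K1 stood at 635 CPM in neurectomy and 416 in sham (0.61, 0.49 to 0.73), B2m at 528 and 392 (0.43) and H2-D1 at 557 and 501 (0.15), and their sum gave 0.39 (0.32 to 0.46). Among 19 members with enough counts, 3 were at least 1.5-fold higher in neurectomy (H2-K1, Nlrc5 and H2-M3), beside 6.09% of all genes, and 3 were lower (H2-Ab1, H2-Eb1 and Cd74), beside 2.61%. Nlrc5, which acts on class I promoters, was at 23.4 and 11.3 CPM from 56 and 25 UMIs. The interferon list did not differ here in the way it did in tenocytes, at 324 and 330 CPM. Xist-only sham barcodes gave a smaller class I ratio of 0.14 and Y-linked ones a larger ratio of 0.73, and 34.4% of the sham endothelial barcodes with 1 of these signals held the Y-linked one, against 0% in neurectomy. The whole-gate ratio of 0.39 thus sets neurectomy barcodes that read as female against sham barcodes of both sexes, and mixes sex with operation. The Xist-only ratio of 0.14 sets like sexes side by side but rests on 183 sham barcodes. Only the sham side was filtered: all 766 neurectomy barcodes were kept, of which 525 were Xist-only. The sides thus also differ in whether a barcode had to show an Xist UMI. The part of sex in the ratio of 0.39 was not tested.

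Of the other classes, mural barcodes lay above blood endothelium and the rest lay between it and tenocytes. Pi16 fibroblasts gave a summed class I ratio of -0.15, with 0 of 9 members past 1.5-fold (beside 2.78% of all genes lower and 3.97% higher). Stromal fibroblasts gave 0.16, and 1 of 12 members was higher, beside 5.28% of all genes higher and 4.40% lower: Cd74, at 14.8 and 4.12 CPM. Lymphatic endothelium gave 0.04, and 3 of 14 members were lower, beside 3.65% of all genes lower and 6.20% higher: Cd74 (16.9 and 33.4 CPM), H2-Ab1 and H2-Eb1. Mural barcodes, only 65 and 82, gave 0.81, and 2 of 4 members were higher, beside 16.3% of all genes higher and 15.6% lower: H2-K1 (266 and 105 CPM) and H2-D1 (245 and 146). Macrophages gave 0.10, and 1 of 23 members was lower, beside 4.04% of all genes lower and 7.01% higher: H2-T24, at 4.51 and 11.0 CPM from 18 and 79 UMIs.

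Class II in the non-immune tendon classes was low, and its ratio kept 1 direction only in Pi16 fibroblasts. Summed class II lay between 7.51 and 117 CPM in these classes, against 2839 and 3350 in macrophages. In Pi16 fibroblasts it stood at 19.2 CPM in neurectomy and 7.51 in sham (1.35, 0.93 to 1.78) from 122 and 79 UMIs, and over 15 alternatives the ratio lay between 0.38 and 1.78. C1q, which these cells should lack, summed to 70.4 and 67.5 CPM in tenocytes, 37.6 and 44.4 in blood endothelium and 8.64 and 5.90 in Pi16 fibroblasts of neurectomy and sham. C1q was thus higher in neurectomy in Pi16 fibroblasts, as summed class II was. It was also higher in stromal fibroblasts (17.3 and 5.01 CPM), as Cd74 was, in lymphatic endothelium (62.2 and 28.3), where Cd74 was lower, and in mural barcodes (31.1 and 19.9). The part of macrophage RNA in these class II ratios was not tested. The class II ratio turned its sign under at least 1 alternative in the stromal, both endothelial and the mural gates, and in tenocytes it ranged from -1.77 to 1.68 around a value of -0.04.

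**Figure D5:**
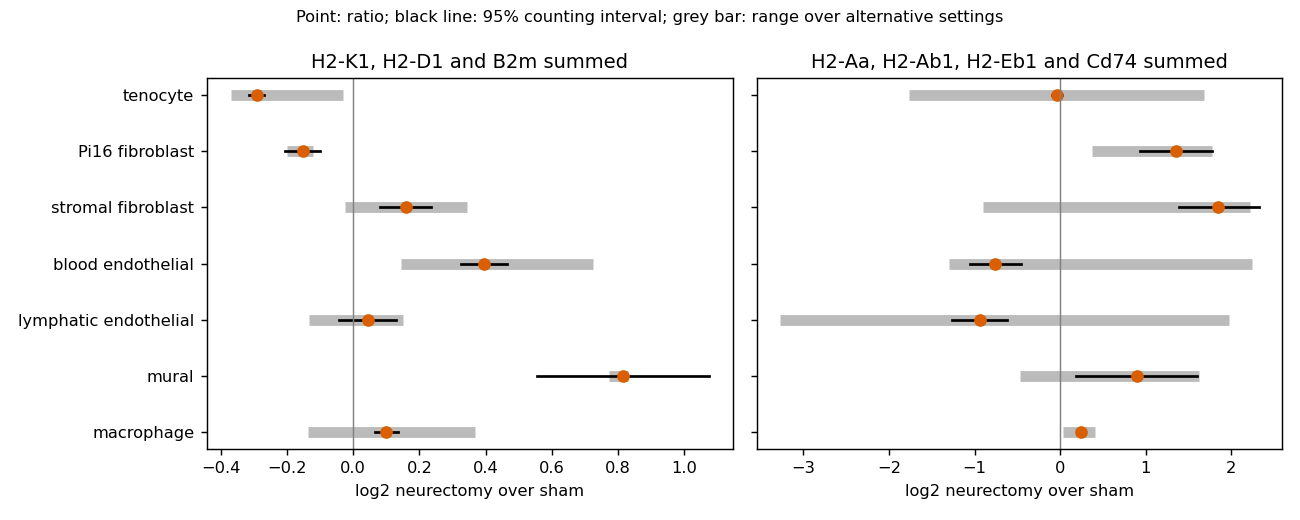
Log2 ratio of neurectomy over sham for summed class I (left) and summed class II (right) in the 7 tendon classes compared, with its 95% counting interval (black) and its range over the alternative settings (grey). Class I in tenocytes (-0.29) and blood endothelium (0.39) lies on opposite sides of 0, and the class II bars of the non-immune classes span wide ranges.

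In macrophages summed class II was slightly higher in neurectomy, and the ratio was largest in the barcodes with resident markers only. Over the whole gate it stood at 3350 CPM in neurectomy and 2839 in sham (0.24, 0.21 to 0.27). In barcodes with resident markers only it stood at 1175 and 417 CPM (1.50, 1.41 to 1.58), in barcodes with Ccr2 only at 15657 and 10654 (0.56), in barcodes with both at 7951 and 5729 (0.47) and in barcodes with neither at 3250 and 3522 (-0.12). Barcodes with both made up 17.5% of the sham gate and 6.94% of the neurectomy gate, and sham macrophages were deeper, with a median of 9298 UMIs against 1724. Among macrophages with at least 5000 UMIs, where the depths were closer, the ratio in barcodes with resident markers only was 1.60, with 64.0% of 178 barcodes in neurectomy and 46.7% of 272 in sham holding a class II UMI. Where barcodes had no more than 1 marker of another lineage it was 0.91. In each library about 1 in 10 of these barcodes held over 80% of the class II UMIs (81.3% in neurectomy and 82.2% in sham), so the ratio rests on few barcodes.

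Of the other genes of the pathway, 33 of the listed genes were in the tendon features. In Pi16 fibroblasts 0 of 23 with enough counts passed 1.5-fold in either direction, beside 2.78% of all genes lower and 3.97% higher. In macrophages 1 of 28 was lower, a share close to the 4.04% of all genes: Marchf1, a ubiquitin ligase that removes class II from the surface, at 77.9 CPM in neurectomy and 131 in sham (-0.75). In stromal fibroblasts 1 of 24 was higher, beside 5.28% of all genes, and 1 was lower, beside 4.40%: Irf1, an interferon-induced factor that acts on class I promoters (299 and 173 CPM), and the costimulatory ligand Cd80 (5.67 and 19.7). In blood endothelium 1 of 24 was higher, beside 6.09%, and 1 was lower, beside 2.61%: Calr, a chaperone of class I loading (313 and 195 CPM), and Ctss, a protease that cuts the invariant chain (10.0 and 19.5). In lymphatic endothelium 2 of 25 were higher, beside 6.20%: Irf1 (150 and 91.9 CPM) and Ctss (17.7 and 9.60). In mural barcodes 5 of 14 were higher, beside 16.3%, among them Irf1 (477 and 231 CPM) and Calr (318 and 144), and 1 was lower, beside 15.6%.

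The transactivators were also set against the genes they act on, class by class. Over the 10 DRG classes, which share 1 library, Spearman's rho was 0.79 between Nlrc5 and summed class I and 0.84 between Ciita and summed class II. Over the 8 neurectomy classes these were 0.48 and 0.46, and over the 7 sham classes 0.68 and 0.88. Ciita was near the floor in most classes, with medians of 0.242 CPM in DRG, 0.483 in neurectomy and 0.960 in sham. Its ranks thus rest largely on few UMIs. In myelinating Schwann barcodes the Nlrc5 level of 22.7 CPM was close to the 26.1 CPM of satellite glia, while the log2 difference of H2-K1 was -2.36.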

How the data were processed

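Each deposited matrix holds raw UMI counts, and its header names Cell Ranger 8.0.1, per the file headers. Per the submitters' processing notes the builds were mm10 and GRCm39, not assigned to libraries, and no annotation release is named, so no coordinates of the files are printed. Tendon features carry Ensembl identifiers and DRG features symbols only. Barcodes needed at least 500 genes and at most 15% mitochondrial counts. A class needed 3 of its 8 markers and a lead of 2 markers over every other class; no doublet caller was run. Classes with at least 50 barcodes were compared, and members entered with a summed count of 50 and 10 CPM in the higher class or library; 1.5-fold is the call. Ratios have exact conditional binomial intervals, levels exact Poisson and shares Clopper-Pearson intervals, all 95%. Median depths of passing and failing barcodes together were 1212, 1065 and 3422 UMIs, which limits values per barcode. Ratios and intervals were checked on simulated class sums in which each UMI was drawn independently. The intervals assume the same, so this checks the calculation only. It does not cover UMIs that cluster in few barcodes. Members were named by the rule above, with values per class for the 12 members with the most UMIs and Ciita and Nlrc5, and others where they marked a class. The members and lists were chosen with earlier results of these data known. Alternatives were other gates, depths, scalings, sexes of sham barcodes and, chosen after seeing the data, shared barcodes left out and a deep clean gate. Python 3.11.15, numpy 2.4.6, scipy 1.17.1 and pandas 2.3.3 were used. The tenocyte counts and the lymphatic count of lower genes for the pathway list are not reported here.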

Additional observations from a re-analysis of the deposited data

Results flagged for a closer look

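Summed class I moved in opposite directions in 2 tendon classes: its log2 ratio of neurectomy over sham was -0.29 in tenocytes and 0.39 in blood endothelium. The difference between these classes was not tested, since each group is 1 library, and the sham library holds barcodes of both sexes in unequal shares of the 2 classes (13.4% Y-linked in tenocytes and 34.4% in blood endothelium).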

How the results depend on the processing

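No paired analysis was possible because each group is 1 library. Log2 values are neurectomy over sham unless said. Summed class I in tenocytes (-0.29) kept its sign in all 15 alternatives: it was -0.34 at 5000 UMIs or more, -0.27 when these also held no more than 1 marker of another lineage, -0.32 at 1000 genes, -0.32 at 5% mitochondrial counts, -0.21 as the mean of each barcode's CPM, -0.27 thinned to 1000 UMIs, -0.32 and -0.032 against Xist-only and Y-only sham barcodes, -0.21 without shared barcodes and -0.37 centred on the median gene. The count of tenocyte members past 1.5-fold (0) became 1 with a lead of 3 markers, 1 at 5% mitochondrial counts, 1 when centred, 2 at 5000 UMIs, 2 when thinned, 2 without shared barcodes (both higher), 4 against Y-only sham barcodes and 4 with a summed count of 20 and no CPM minimum. The share of all genes past 1.5-fold was 1.37% lower and 4.11% higher in the main gate, and 2.05% and 3.09% at 5000 UMIs. It was not counted for the other settings, so their counts of members cannot be judged against it. In blood endothelium class I (0.39) kept its sign in 14 alternatives and was 0.59 with no more than 1 marker of another lineage, 0.51 at 5000 UMIs, 0.51 thinned, and 0.14 and 0.73 against Xist-only and Y-only sham barcodes. Class I in Pi16 fibroblasts lay between -0.20 and -0.12. Class II in macrophages (0.24) was 0.035 with no more than 1 marker of another lineage, 0.082 when these also held 5000 UMIs, 0.30 at 5% mitochondrial counts, 0.41 against Y-only sham barcodes and 0.16 without shared barcodes. DRG neurons over satellite glia (-2.77) gave -2.83 with a lead of 3 markers, -2.59 with no more than 1 marker of another lineage, -2.82 at 5000 UMIs, -2.72 with both, -2.32 as the mean of each barcode's CPM and -2.30 thinned. Leaving out only the shallower copy of each shared barcode moved none of these 6 results beyond its counting interval. The other 86 results gave 1204 alternative values: 902 stayed within the counting interval and 279 moved beyond it, and 23 reversed, which means that a ratio past 1.5-fold changed sign. In all, 148 of these values lay on the other side of 0 from the reported ratio, most of which had not passed 1.5-fold.

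The reversals were nearly all of class II in classes with few of its UMIs. With no more than 1 marker of another lineage, blood endothelium gave 2.25 for summed class II, 2.06 for Cd74, 2.89 for H2-Ab1 and 1.89 for H2-Eb1. Against Xist-only sham barcodes it gave 0.069 for summed class II, 0.034 for H2-Ab1 and 0.50 for H2-Eb1. H2-Eb1 was also 0.32 there with a lead of 3 markers, 0.12 at 5000 UMIs and 0.10 against Y-only sham barcodes, and H2-M3 was -0.54 thinned. Lymphatic endothelium at 5000 UMIs gave 1.16 for summed class II, 1.65 for Cd74, 0.47 for H2-Ab1 and 0.95 for H2-Eb1, and against Y-only sham barcodes 1.97, 3.15, 2.27 and 0.39. Stromal Cd74 was -0.20 at 5000 UMIs and -3.01 when these also held no more than 1 marker of another lineage, where summed class II was -0.90. Mural class II was -0.47 with 4 markers. The cause was not tested. Depth limits values per barcode in the tendon libraries most.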

Other observations

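H2-Q10, which encodes a secreted class I molecule made mainly in liver, stood at 43.5 CPM in the 136 DRG neutrophil barcodes (19 UMIs) and at no more than 3.69 CPM in any other DRG class with at least 50 barcodes. H2-DMb2, the second beta chain gene of H2-DM, stood at 180 CPM in the 22 sham B cell barcodes and 50.3 in the 11 sham dendritic barcodes, where H2-DMb1 stood at 127 and 704 CPM. In DRG blood endothelium the interferon list summed to 2589 CPM, against 751 in satellite glia and 159 in neurons.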
